A study of Mus musculus with 16 samples.

Results

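The liver transcripts of 7 genes of cholesterol homeostasis were followed through cadmium (Cd) and selenium (Se) treatment in mice. Hmgcs1, Idi1, Fdps, Fdft1, Sqle and Lss encode enzymes of cholesterol synthesis, and Insig1 encodes a sensor protein that restrains it. The genes were chosen by name, as established targets of the transcription factor SREBP2, from the 57010 genes of the deposited table, and all 7 were among the 11766 genes whose mean reached 1 TPM (a level corrected for transcript length, with every library brought to one common total). The liver RNA came from 16 wild-type male C57BL/6J mice in 4 groups of 4. The mice were 8 weeks old when the diet began, and the general range given for the animals is 8 to 12 weeks. The control group (mice 27 to 30) received neither agent, and what it was injected with is not given in the sources used here. The Cd group (mice 1, 2, 5 and 6) was injected intraperitoneally with CdCl2 at 1.25 mg/kg each day for 7 days. The Se group (mice 39, 40, 41 and 44) ate a diet with selenomethionine (SeMet) at 2 ppm for 3 months, and the Cd+Se group (mice 13 to 16) ate the same diet and received the CdCl2 injections in its final 7 days. Whole liver was taken, and neither the hour of collection nor the feeding state is given in the sources used here.

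Cholesterol is built from acetyl-CoA through mevalonate, isoprenoid diphosphates, squalene and lanosterol, and the liver is a main site of this synthesis. SREBP2 (gene Srebf2) is made as a precursor in the endoplasmic reticulum, where the escort protein SCAP carries it to the Golgi when membrane sterols are low, and proteases there release the part that enters the nucleus and turns on the genes of synthesis and lipoprotein uptake. When sterols are high, INSIG proteins hold SCAP and SREBP2 back in the endoplasmic reticulum. Insig1 is itself a target of SREBP2, so that the pathway makes its own restraint.

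SREBP2 is known to bind short sterol regulatory elements near gene starts, together with NF-Y at CCAAT boxes and Sp1 at GC boxes. The 250 bases before the start were read from RefSeq (GRCm38.p6) for the 4 members with an entry, Hmgcs1, Idi1, Lss and Insig1. Sqle, Fdps and Fdft1 are named only. The motifs TCACCCCAC, CACNCCAC, CCAAT and GGGCGG were searched on both strands, and any TCACCCCAC also holds a CACNCCAC. The promoters of Insig1 and Hmgcs1 are shown because their fitted changes under Cd were the largest of the 7, and that of Idi1 because its fitted change was the nearest to 0. All are on the plus strand, are printed from 5′ to 3′ and end at the base before the start, with the matches in capitals.
Insig1 (chr5:28071162-28071411): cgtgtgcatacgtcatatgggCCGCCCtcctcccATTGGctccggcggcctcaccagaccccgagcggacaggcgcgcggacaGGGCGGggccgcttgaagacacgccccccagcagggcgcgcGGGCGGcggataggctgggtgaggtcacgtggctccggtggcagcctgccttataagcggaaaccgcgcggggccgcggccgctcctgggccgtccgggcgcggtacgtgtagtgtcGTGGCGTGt
Hmgcs1 (chr13:119690101-119690350): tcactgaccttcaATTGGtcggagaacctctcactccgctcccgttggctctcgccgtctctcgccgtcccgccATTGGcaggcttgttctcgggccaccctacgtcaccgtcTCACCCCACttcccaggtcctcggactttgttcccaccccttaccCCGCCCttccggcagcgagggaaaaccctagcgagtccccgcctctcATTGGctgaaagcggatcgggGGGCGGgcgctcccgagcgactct
Idi1 (chr13:8885356-8885605): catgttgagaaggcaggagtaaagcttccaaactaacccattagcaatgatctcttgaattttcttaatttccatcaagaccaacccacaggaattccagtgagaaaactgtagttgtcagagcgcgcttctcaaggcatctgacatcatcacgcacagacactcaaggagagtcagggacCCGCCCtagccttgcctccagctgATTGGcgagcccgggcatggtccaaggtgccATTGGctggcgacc
The Hmgcs1 promoter held TCACCCCAC once, from 137 to 129 bases before the start, a motif present in 0.496% of the 32851 promoters of the same length. The Insig1 promoter held CACNCCAC once, read as GTGGCGTG from 9 to 2 bases before the start, a pattern present in 5.29% of promoters. Neither pattern was in the Idi1 or Lss window. CCAAT, found in 33.8% of promoters, occurred 3 times before Hmgcs1, 2 times before Idi1 and once each before Lss and Insig1. GGGCGG, found in 32.7% of promoters, occurred 3 times before Insig1, 2 times before Hmgcs1 and Lss and once before Idi1. These matches describe the letters of the windows and do not show that a factor was bound.

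Mt1 and Mt2 encode metallothioneins, which bind Cd, and served to check the group labels. Mt1 was 50.9 to 221 TPM in control mice, 3178 to 4899 in Cd mice, 3621 to 6070 in Cd+Se mice and 64.3 to 431 in Se mice. Under Cd, Mt1 rose by 5.30 and Mt2 by 5.88 on the log2 scale (adjusted p = 1.86e-05 and 5.74e-05 by limma). Hepatocyte markers were abundant in every library (6 of 6 tested). Their summed level was 57603 to 79909 TPM in control, 37529 to 63606 in Cd, 48025 to 68961 in Cd+Se and 57679 to 108978 in Se mice. The 4 cholangiocyte markers summed to at most 4.29 TPM and the 4 T and B cell markers to at most 3.45 TPM. Of the hepatocyte markers Cps1 and Hnf4a fell under Cd, by 1.36 and 0.81 on the log2 scale, and 4 were not called. Markers of other cells differed between the groups. The 4 neutrophil markers summed to 5.73 to 15.7 TPM in control, 31.0 to 39.6 in Cd, 43.9 to 73.2 in Cd+Se and 5.10 to 9.21 in Se mice, with Ly6g at a mean of 0.031 TPM. The 4 Kupffer cell markers summed to 92.8 to 115 TPM in control, 29.6 to 50.1 in Cd, 24.1 to 56.6 in Cd+Se and 49.3 to 126 in Se mice. In Cd against control, 3 of 3 neutrophil markers tested rose, 4 of 4 Kupffer cell markers fell, 2 of 3 monocyte or macrophage markers rose, 2 of 4 sinusoidal endothelial markers fell and 1 of 3 stellate cell markers fell. Of all genes tested, 5.82% were called higher and 24.9% lower there. In Cd+Se against Cd, the hepatocyte markers Cps1 and Hnf4a rose by 0.87 and 0.58 on the log2 scale, the macrophage marker Lyz2 by 0.83 and the endothelial marker Lyve1 by 1.09, and no neutrophil, Kupffer cell or stellate cell marker was called (0, 0 and 1 with an unadjusted p under 0.05). In that comparison 13.6% of all genes were called higher and 2.35% lower. The part of these shifts in the results below was not tested, and in whole tissue fewer cells of a type and less RNA per cell cannot be told apart.

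Se mouse 40 stood apart from the other mice of its group in this pathway. It had the highest level of all 16 mice for the 6 enzymes, and the highest level in the Se group for Insig1. Relative to the median of the other 3 Se mice, its levels were 5.68-fold for Hmgcs1, 6.47-fold for Idi1, 6.04-fold for Fdps, 3.44-fold for Fdft1, 6.81-fold for Sqle, 3.78-fold for Lss and 2.65-fold for Insig1. All 7 genes and 10 of 13 other enzymes of the pathway exceeded 2-fold on the scale of TPM + 1, against 2.83% of all genes tested. Srebf2 was 15.8 TPM in this mouse and at most 7.53 TPM in any other. The library was highest of the 16 for 28.2% of all genes tested. Outside this pathway, its Alb and Apoa1 levels were 1.94-fold and 1.91-fold the median of the other 3 Se mice. The results that rest on it are therefore also given without it. Over the other 3 Se mice the levels were 24.0 ± 6.10 TPM for Hmgcs1, 34.1 ± 6.35 for Idi1, 98.4 ± 21.5 for Fdps, 27.9 ± 4.01 for Fdft1, 8.02 ± 2.45 for Sqle, 6.24 ± 0.44 for Lss and 59.2 ± 8.59 for Insig1 (SD, n = 3).

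The 7 genes covered a wide range of levels, and most neighbours in the order were not separated by the spread between mice. In control mice, Fdps was the most abundant at 153 ± 95.4 TPM (SD, n = 4, as for the group values below), followed by Insig1 at 57.3 ± 9.16, Idi1 at 45.6 ± 21.9, Hmgcs1 at 27.6 ± 6.26, Fdft1 at 27.3 ± 3.70, Sqle at 9.17 ± 7.25 and Lss at 7.67 ± 1.70. The ranges of neighbours overlapped at every step of this order except between Fdft1 (22.3 to 31.2 TPM) and Sqle (2.69 to 18.9 TPM). The genes also differed in how far mice of 1 group lay apart. Among the control mice the highest level was 7.04-fold the lowest for Sqle, 4.35-fold for Fdps and 3.16-fold for Idi1, but 1.38-fold for Insig1, 1.40-fold for Fdft1, 1.61-fold for Lss and 1.73-fold for Hmgcs1.

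**Figure D1:**
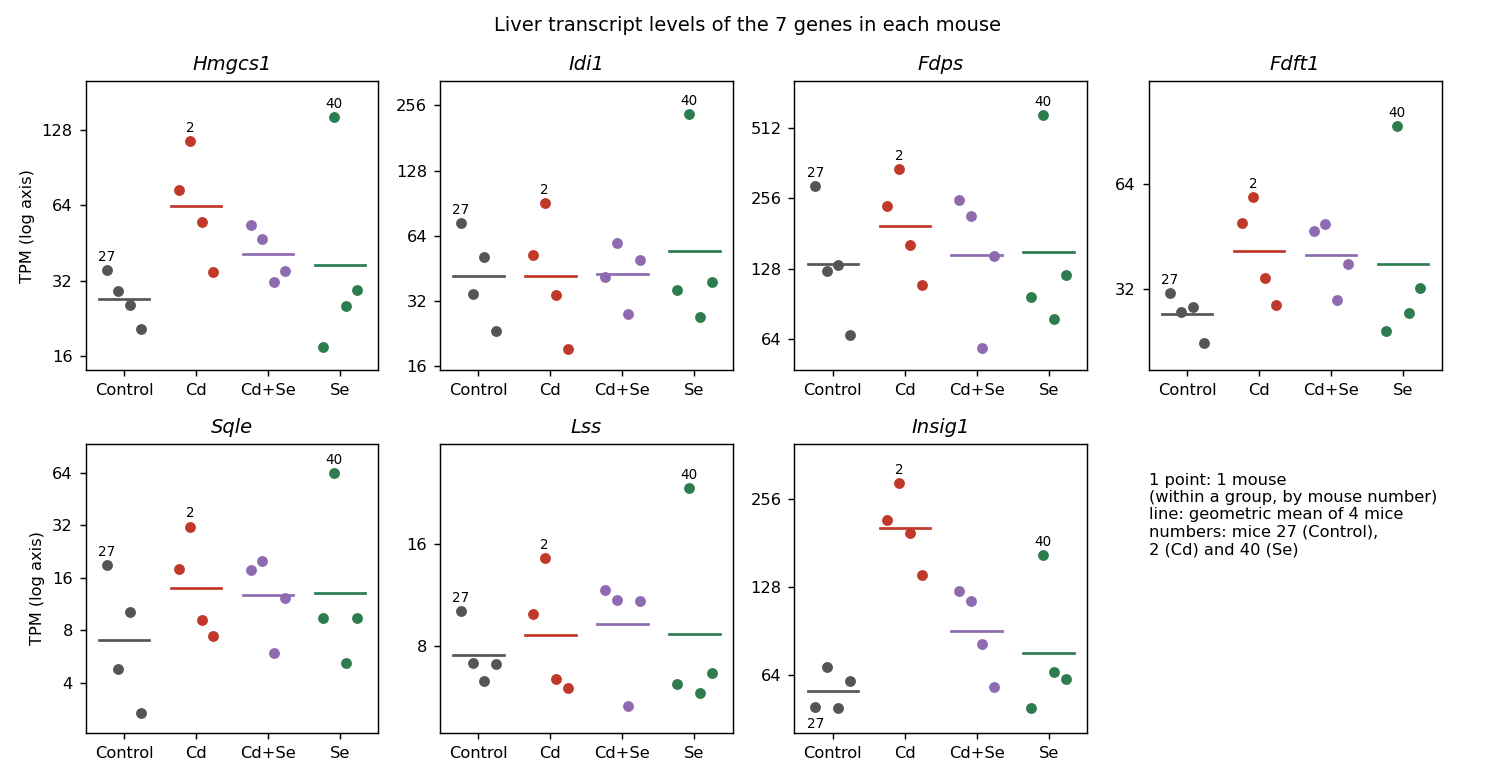
Level of each of the 7 genes in each of the 16 mice (TPM on a log axis), by group, with a line at the geometric mean of the 4 mice. Insig1 was 140.4 to 289 TPM in the Cd mice and 49.5 to 68.4 TPM in the control mice, and Se mouse 40 was the highest of all mice in the 6 enzyme panels.

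Insig1 (ENSMUSG00000045294), the sterol sensor, was the only member called higher under Cd in the fit of all 16 libraries. Its level was 50.1, 68.4, 49.5 and 61.2 TPM in control mice 27, 28, 29 and 30. In Cd mice 1, 2, 5 and 6 it was 216, 289, 196 and 140.4 TPM. Every Cd mouse lay above every control mouse, a separation in this direction that 6.44% of the genes tested showed. The group means were 57.3 ± 9.16 TPM and 211 ± 61.5 TPM, and the fitted change on the scale of TPM + 1 was 3.55-fold (log2 fold change 1.83, with a standard error, SE, of 0.32, adjusted p = 9.85e-04 by limma, exact two-sided permutation p = 0.0286, the smallest that 4 mice against 4 allow). The adjusted p stayed under 0.05 under each of the 25 alternatives, between 7.66e-05 and 0.00464.

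In Cd+Se mice 13, 14, 15 and 16 the level of Insig1 was 125, 115, 81.9 and 58.3 TPM (94.8 ± 30.5). These mice lay below all Cd mice, which 3.11% of the genes tested did, and overlapped the control mice. From Cd to Cd+Se, Insig1 fell by 1.16 on the log2 scale (SE 0.32, adjusted p = 0.0261 by limma; exact permutation p = 0.0286). The call was lost in 6 of 25 alternatives, with an adjusted p of 0.0716 without a filter on low values, 0.0658 with the Cd and Cd+Se mice alone, 0.0638 and 0.0644 without Cd mouse 2 or 5, and 0.0563 and 0.0728 without Cd+Se mouse 15 or 16. Against control, Cd+Se gave a log2 fold change of 0.67 (SE 0.32, adjusted p = 0.466). In Se mice 39, 40, 41 and 44 Insig1 was 49.5, 165, 65.9 and 62.3 TPM, so that 3 of the 4 mice lay within the control range and mouse 40 above it.

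The effect of Cd on Insig1 in mice on the Se diet was compared with its effect in mice without it by the interaction of the treatments. The log2 difference between these effects was -1.57 (SE 0.46, adjusted p = 0.0868 by limma), which missed the threshold that 1.04% of the genes tested passed in either direction. It was -1.21 without Se mouse 40 (adjusted p = 0.0647), -1.58 after quantile normalization (adjusted p = 0.0483) and -1.76 after median centring, which sets all library medians equal (adjusted p = 0.0281). Over all alternatives the adjusted p was between 0.0281 and 0.191. Both scalings also raised the number of the 11766 genes called lower in the interaction. It was 16 as deposited, 196 after quantile normalization and 416 after median centring.

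Hmgcs1 (ENSMUSG00000093930), the HMG-CoA synthase that makes the precursor of mevalonate, was 35.3, 29.2, 25.5 and 20.5 TPM in control mice 27 to 30. In Cd mice 1, 2, 5 and 6 it was 73.4, 115, 54.8 and 34.8 TPM. Of the 4 Cd mice, 3 lay above all control mice, and Cd mouse 6 fell just under control mouse 27. Its fitted log2 fold change was 1.20 (SE 0.49, adjusted p = 0.0720 by limma; exact permutation p = 0.0571), which missed the threshold in the fit of all 16 libraries. The same change had an SE of 0.30 and an adjusted p of 0.00725 when Se mouse 40, which enters the fit only through the shared spread, was left out. The adjusted p was also 0.0392 after quantile normalization, 0.0248 after median centring, 0.0178 with the control and Cd mice alone and 0.0426 without Cd mouse 6, and it was under 0.05 in 7 of 25 alternatives and at most 0.191. In Cd+Se mice 13 to 16 Hmgcs1 was 53.6, 47.0, 31.6 and 35.0 TPM, with a mean of 41.8 ± 10.3 between those of the control and Cd mice, and overlapping each. The log2 fold change of Cd+Se against Cd was -0.62 (SE 0.49, adjusted p = 0.392). Se mice 39, 41 and 44 were at 17.4, 25.4 and 29.3 TPM, and mouse 40 at 144 TPM.

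Idi1 (ENSMUSG00000058258), the isomerase that provides dimethylallyl diphosphate, did not separate the groups. It was 73.7, 34.5, 51.1 and 23.4 TPM in control mice 27 to 30 and 52.3, 90.4, 34.0 and 19.3 TPM in Cd mice 1, 2, 5 and 6. On the fitted scale, the log2 fold change was 0.01 (SE 0.58, adjusted p = 0.991 by limma), and its sign changed when control mouse 28 or 30, or Cd mouse 1 or 2, was left out. In Cd+Se mice 13 to 16 it was 41.4, 59.3, 27.9 and 49.5 TPM, within the range of the Cd mice. In Se mice it was 36.2, 234, 27.03 and 39.2 TPM, the second value being mouse 40.

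Fdps (ENSMUSG00000059743), which joins isoprenoid units to farnesyl diphosphate, was 289.6, 125, 132 and 66.7 TPM in control mice 27 to 30. It was 237, 341, 162 and 109 TPM in Cd mice 1, 2, 5 and 6. The groups overlapped widely, with a log2 fold change of 0.54 (SE 0.60, adjusted p = 0.527 by limma). Cd+Se mice 13 to 16 were at 253, 215, 58.6 and 145 TPM, and mouse 15 was the lowest of all 16 mice. Se mice 39, 40, 41 and 44 were at 96.4, 582, 78.0 and 121 TPM.

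Fdft1 (ENSMUSG00000021273), the squalene synthase that commits farnesyl diphosphate to sterols, was 31.2, 27.4, 28.3 and 22.3 TPM in control mice 27 to 30, a narrow range. In Cd mice 1, 2, 5 and 6 it was 49.3, 58.7, 34.3 and 28.8 TPM, so that 3 of 4 lay above all control mice. The log2 fold change was 0.58 (SE 0.33, adjusted p = 0.193 by limma; exact permutation p = 0.0571). The adjusted p was 0.0420 without Se mouse 40 and 0.0410 after median centring, and up to 0.398 over the alternatives. Cd+Se mice 13 to 16 were at 46.9, 48.9, 29.8 and 37.7 TPM, which gave a log2 difference of -0.04 from the Cd mice (adjusted p = 0.952). Se mice 39, 41 and 44 were at 24.2, 27.3 and 32.1 TPM and mouse 40 at 93.8 TPM.

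Sqle (ENSMUSG00000022351), the squalene epoxidase, had the widest relative range of the 7 genes in the control and Se groups. It was 18.9, 4.82, 10.2 and 2.69 TPM in control mice 27 to 30 and 17.9, 31.5, 9.20 and 7.43 TPM in Cd mice 1, 2, 5 and 6. The fitted log2 fold change was 0.86 (SE 0.66, adjusted p = 0.342 by limma), and the groups overlapped. Cd+Se mice 13 to 16 were at 17.8, 20.1, 5.96 and 12.3 TPM. Se mice 39, 40, 41 and 44 were at 9.41, 64.1, 5.19 and 9.47 TPM.

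Lss (ENSMUSG00000033105), which cyclises squalene epoxide to lanosterol, was 10.2, 7.13, 6.31 and 7.08 TPM in control mice 27 to 30 and 9.99, 14.6, 6.4 and 6.03 TPM in Cd mice 1, 2, 5 and 6. The log2 fold change was 0.18 (SE 0.36, adjusted p = 0.733 by limma). Cd+Se mice 13, 14 and 16 lay close together at 11.8, 10.97 and 10.9 TPM, and mouse 15 was apart at 5.33 TPM, the lowest of the 16 mice. Se mice 39, 41 and 44 were at 6.20, 5.82 and 6.70 TPM and mouse 40 at 23.4 TPM.

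Across the 7 genes, all fitted changes of Cd against control were positive, with a median log2 fold change of 0.58, while the median of all genes tested was -0.17. In the fit of all libraries 1 of the 7 genes, Insig1, was called higher and 0 were called lower, where 5.82% of all genes were called higher and 24.9% lower. Without Se mouse 40 the genes called higher were Insig1, Hmgcs1 and Fdft1, 3 of 7, with a background of 6.45%. The same 3 genes were called higher after median centring, against a background of 19.2%, and Insig1 and Hmgcs1 were called after quantile normalization, against 14.5%. The choice of scaling moved the median of all genes by up to 0.22 on the log2 scale, from -0.17 to 0.05 with median centring, and all 7 genes had a positive fitted change under each scaling. The share of all calls that were lower in Cd against control was 81.1% as deposited, 57.1% after quantile normalization and 44.4% after median centring. The smallest fitted changes of the 7 were those of Idi1, 0.01, and Lss, 0.18.

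**Figure D2:**
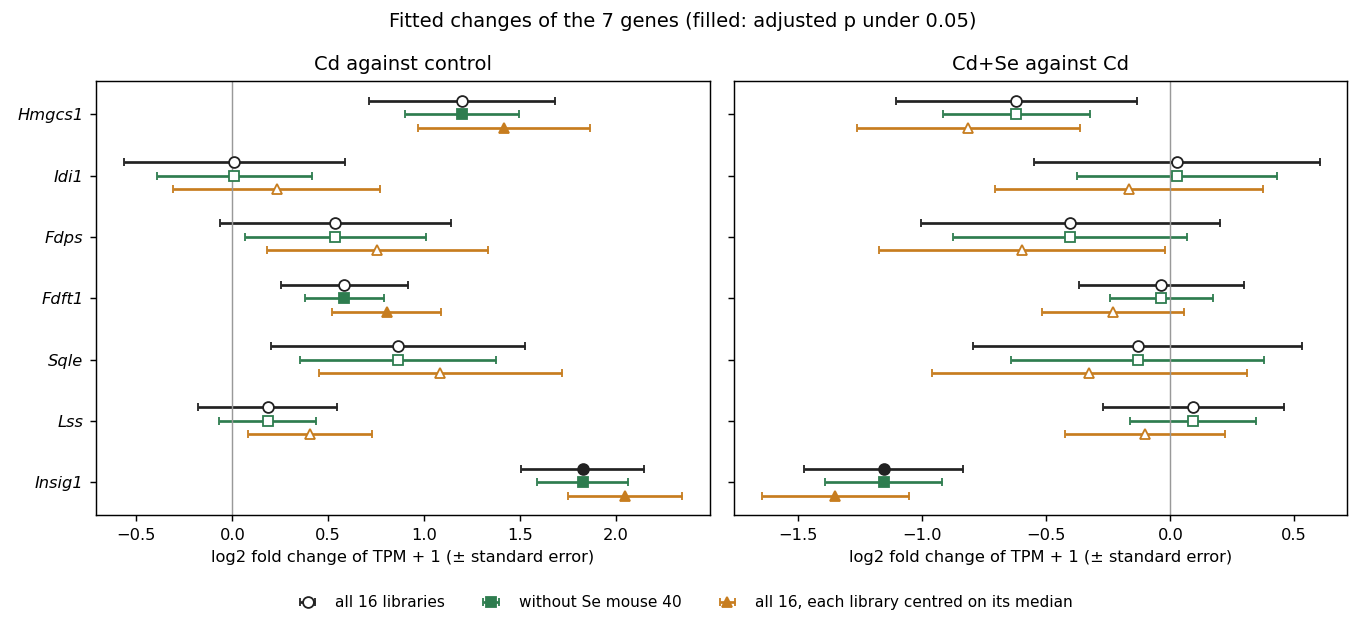
Fitted log2 fold changes of TPM + 1 with standard errors for the 7 genes in Cd against control and in Cd+Se against Cd, in the fit of all 16 libraries, without Se mouse 40, and with median centring; filled symbols have an adjusted p under 0.05. Insig1 is filled in each fit of both panels, and Hmgcs1 and Fdft1 are filled in Cd against control in the fits other than that of all libraries as deposited.

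In Cd+Se against Cd, which shares the Cd mice with the comparison above, 1 of the 7 genes was called lower, Insig1, and 0 were called higher, where 2.35% of all genes were called lower and 13.6% higher. The median of the 7 genes was -0.13, and that of all genes tested was 0.17. Of all calls in this comparison 14.7% were lower as deposited, 43.7% after quantile normalization and 57.6% after median centring. The fitted changes of Idi1 and Lss, 0.03 and 0.09, turned to -0.17 and -0.10 with median centring, and none of the 6 enzymes had an adjusted p under 0.05 in the fit of all libraries (lowest 0.392, Hmgcs1; 0 of 6 with an unadjusted p under 0.05).

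The other comparisons called none of the 7 genes with limma. In Cd+Se against control, 0.484% of all genes were called in either direction, and the 7 fitted log2 fold changes were between 0.04 and 0.73 (lowest adjusted p 0.466, Insig1; 0 of 7 with an unadjusted p under 0.05). In Se against control, 0% of all genes were called, and each of the 7 had an adjusted p of 1 (0 of 7, and 454 of all genes, with an unadjusted p under 0.05). Without Se mouse 40, the fitted changes of Hmgcs1, Idi1, Fdps and Lss in this comparison turned from positive to negative, at -0.20, -0.30, -0.46 and -0.24. In Cd+Se against Se, 0.714% of all genes were called, and the 7 changes were between -0.35 and 0.25, with a median of 0.08 (0 of 7 with an unadjusted p under 0.05). Without Se mouse 40 all 7 were positive, between 0.34 and 0.77 with a median of 0.59, and 3 of 7 had an unadjusted p under 0.05, but none was called (lowest adjusted p 0.346). In the interaction the 7 differences were all negative, with a median of -0.59 where all genes had 0.16, but without Se mouse 40 the median was -0.07, with 4 of 7 negative.

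**Figure D3:**
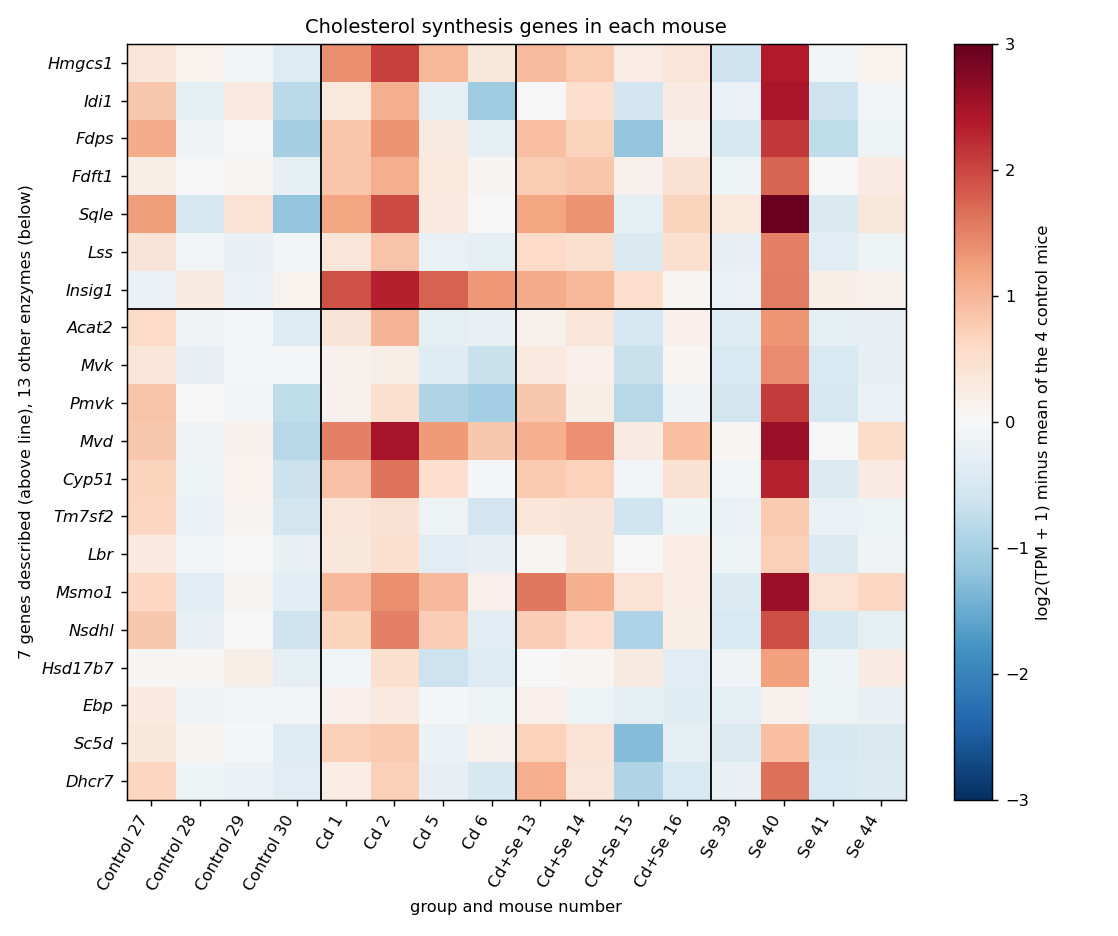
Difference of log2(TPM + 1) from the mean of the 4 control mice, for the 7 genes (upper rows) and 13 other enzymes of cholesterol synthesis (lower rows), in each of the 16 mice. The column of Se mouse 40 is red in nearly all rows, and within groups the columns of control mouse 27 and Cd mouse 2 are redder than those of the other mice for most enzymes.

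The 6 enzymes varied together from mouse to mouse within a group. Control mouse 27 was the highest of its group for all 6 enzymes, and control mouse 30 the lowest for 5 of them. Cd mouse 2 was the highest and Cd mouse 6 the lowest of its group for all 7 genes, and Cd+Se mouse 15 was the lowest of its group for all 6 enzymes. With each mouse taken as its deviation from its group's mean log2(TPM + 1), Pearson's r between pairs of enzymes over the 16 libraries was between 0.87 and 0.98 (15 pairs, median 0.92), the highest for Hmgcs1 with Fdft1. Without Se mouse 40 it was between 0.75 and 0.94 (median 0.86). Insig1 followed the enzymes less closely, with r between 0.63 (Sqle) and 0.88 (Hmgcs1), and between 0.28 and 0.73 without Se mouse 40. These correlations are descriptions over libraries that share one scaling, and the difference between them was not tested.

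The ratio of Insig1 to the enzymes is not altered where all TPM of a library are multiplied by one factor, although quantile normalization can alter it. The geometric mean of the 6 enzymes was 26.1 ± 10.7 TPM in control, 40.7 ± 20.4 in Cd, 34.3 ± 11.1 in Cd+Se and 46.0 ± 48.4 in Se mice, so that the groups overlapped. The Se value rested on mouse 40, and over the other 3 Se mice it was 21.8 ± 3.49 TPM, the lowest of the 4 group means. Insig1 divided by this mean was 1.23, 3.09, 1.90 and 3.97 in control mice 27 to 30. It was 4.84, 4.28, 6.75 and 6.58 in Cd mice 1, 2, 5 and 6, each above all control mice. It was 2.97, 2.66, 4.28 and 1.77 in Cd+Se mice 13 to 16 and 2.36, 1.39, 3.503 and 2.43 in Se mice 39, 40, 41 and 44. Se mouse 40, with the highest enzyme levels, had the lowest ratio of its group, and Cd+Se mouse 15 lay just above Cd mouse 2, so that the Cd and Cd+Se groups met at the edge. Relative to Hmgcs1 alone the ratio was 2.17 ± 0.66 in control, 3.27 ± 0.68 in Cd, 2.25 ± 0.41 in Cd+Se and 2.18 ± 0.75 in Se mice. With this divisor the control mice (1.42 to 2.99) and the Cd mice (2.51 to 4.04) overlapped.

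**Figure D4:**
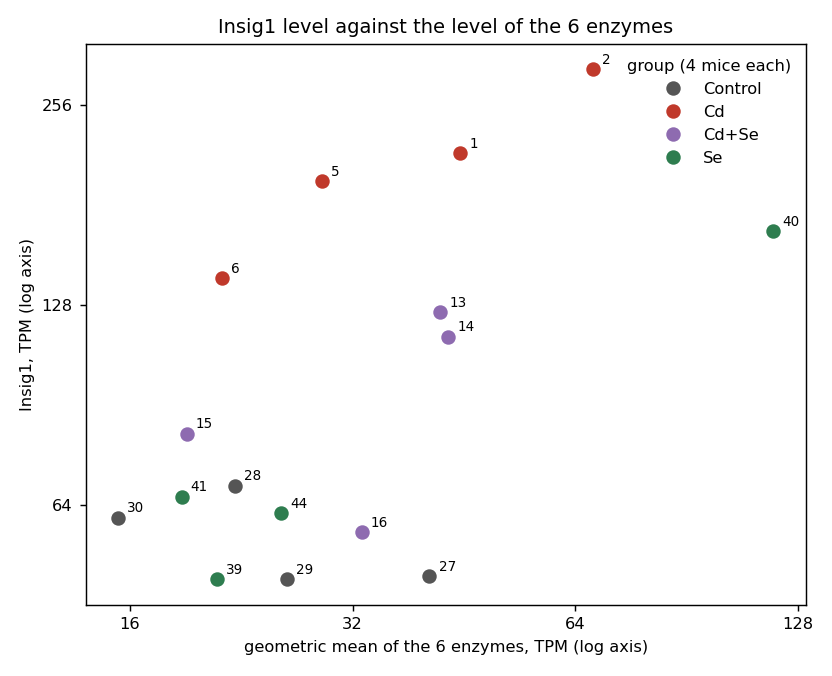
Insig1 level against the geometric mean of the 6 enzymes in each mouse, both in TPM on log axes, with mouse numbers beside the points. The 4 Cd mice lie above the control mice at like enzyme levels, with ratios of 4.28 to 6.75 against 1.23 to 3.97, and Se mouse 40 lies at the far right with a ratio of 1.39.

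Of 13 other enzymes of cholesterol synthesis, 1 was called higher under Cd, 0 lower and 12 were not called. The 1 called was also the only 1 of the 13 with an unadjusted p under 0.05 by limma. Of all genes tested, 5.82% were called higher and 24.9% lower. Enzymes not reported here are left out of the 13, so their share called is not compared with that of all genes. The median log2 fold change of the 13 was 0.07, where that of all genes was -0.17. Mvd, the decarboxylase that makes isopentenyl diphosphate, was 3.70, 1.51, 1.94 and 0.51 TPM in control mice 27 to 30. It was 6.70, 14.1, 5.54 and 3.72 TPM in Cd mice 1, 2, 5 and 6. The groups thus met without overlapping, a separation in this direction that 6.44% of the genes tested showed. Its log2 fold change was 1.52 (SE 0.51, adjusted p = 0.0319 by limma), and at these levels the added 1 TPM makes the fold change smaller than the ratio of the means. In Cd+Se mice 13 to 16 Mvd was 4.67, 5.97, 2.19 and 4.06 TPM, overlapping both groups, and its log2 change against Cd was -0.62 (SE 0.51, adjusted p = 0.411).

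Of 9 genes that sense sterols and process SREBP, 3 were called lower under Cd, 1 was called higher and 5 were not called, where 24.9% of all genes were called lower and 5.82% higher. After median centring 1 was called lower (Mbtps1) and 1 higher (Syvn1), where 1804 of the 11766 genes tested were called lower and 2260 higher. Srebf2 itself was 6.64 ± 0.55 TPM in control and 5.44 ± 0.90 in Cd mice, with a log2 fold change of -0.25 (SE 0.22, adjusted p = 0.395 by limma). Srebf1, whose liver product SREBP1c drives fatty acid synthesis, fell from 168 ± 19.6 to 64.9 ± 20.2 TPM, a log2 change of -1.40 (SE 0.47, adjusted p = 0.0342, and 0.0639 after median centring). In Cd+Se mice it was 63.6 ± 41.4 TPM, a log2 difference of -0.30 from the Cd mice (adjusted p = 0.695). In Se mice it was 87.6 ± 41.8 TPM, below all control mice, with a log2 change of -1.07 against control that was not called (adjusted p = 1, unadjusted p = 0.0374 by limma, exact permutation p = 0.0286). In that comparison 0% of all genes were called, and the share of all genes with such a separation was not counted. Mbtps1, the site-1 protease that cuts SREBPs, fell by 0.53, and Rnf139, a ubiquitin ligase of the endoplasmic reticulum, fell by 0.46 (adjusted p = 0.00876 and 0.0377, the latter 0.0526 after median centring). Both genes were called higher in Cd+Se against Cd, with log2 changes of 0.42 and 0.51 (adjusted p = 0.0465 and 0.0402), of which that of Mbtps1 was lost with median centring (0.23, adjusted p = 0.0934). Syvn1, another ubiquitin ligase of the endoplasmic reticulum, rose from 14.99 ± 1.91 to 25.5 ± 7.06 TPM (log2 fold change 0.70, SE 0.25, adjusted p = 0.0437). Scap was 15.7 ± 2.07 TPM in control and 17.6 ± 6.62 in Cd mice, and Insig2, the second INSIG gene, 51.1 ± 5.54 and 64.5 ± 14.4 (adjusted p = 0.792 and 0.380).

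Among 9 genes of lipoprotein uptake and lysosomal cholesterol release, 2 were called lower under Cd, 0 higher and 7 were not called, a share near the 24.9% of all genes called lower. An unadjusted p under 0.05 by limma was found for 3 of the 9, the 2 called included. After median centring 1 was called lower (Lipa) and 1 higher (Lrpap1, a chaperone of lipoprotein receptors, 0.49, limma adjusted p = 0.00751, named after its values were seen). With that centring 1804 of the 11766 genes tested were called lower and 2260 higher. Lipa, the lysosomal acid lipase that frees cholesterol from its esters, fell from 70.7 ± 10.3 to 44.1 ± 11.3 TPM under Cd and was 71.5 ± 6.99 in Cd+Se mice (log2 changes -0.69 and 0.72, adjusted p = 0.0159 and 0.0259). Snx17, which recycles lipoprotein receptors, fell by 0.38 on the log2 scale (adjusted p = 0.0286, and 0.231 after median centring).

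Of 9 genes of cholesterol efflux, esterification and sterol receptors, 2 were called lower under Cd, 0 higher and 7 were not called, again a share near the 24.9% of all genes. An unadjusted p under 0.05 by limma was found for 2 of the 9, which were the 2 called. Abca1, the transporter that exports cholesterol to lipid-poor apolipoproteins, was 27.7, 34.3, 28.4 and 27.2 TPM in control mice 27 to 30 and 15.8, 16.9, 10.9 and 14.6 TPM in Cd mice 1, 2, 5 and 6. It was 22.1, 30.04, 20.2 and 23.9 TPM in Cd+Se mice 13 to 16, all above the Cd mice. In Se mice 39, 40, 41 and 44 Abca1 was 27.12, 24.92, 23.65 and 19.66 TPM, each below all control mice, though mouse 39 only just (lowest control mouse 27.19). The shares of all genes that separate these groups in these directions were not counted. The log2 changes of Cd against control and Cd+Se against Cd were -0.98 (SE 0.15, adjusted p = 4.14e-04 by limma) and 0.69 (SE 0.15, adjusted p = 0.0105), and the interaction was 0.99 (SE 0.21, adjusted p = 0.0415). Nr1h3, the oxysterol receptor LXR-alpha, fell by 0.46 on the log2 scale in Cd against control (adjusted p = 0.00794, and 0.0765 after median centring).

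Of the genes that draw on farnesyl diphosphate for other products, 7 of 8 were tested and 3 were called lower under Cd, 0 higher, beside 24.9% of all genes called lower. An unadjusted p under 0.05 by limma was found for 4 of the 7, the 3 called included. Cox10, which makes the haem of cytochrome oxidase, fell from 4.05 ± 0.37 to 1.82 ± 0.47 TPM (log2 change -0.86, limma adjusted p = 8.83e-04). Dhdds, of dolichol synthesis, and Pdss1, of the ubiquinone side chain, fell by 0.48 and 0.42 (adjusted p = 0.00328 and 0.0208), and both calls were lost after median centring (0.0629 and 0.161). None of 8 genes of fatty acid synthesis was called by limma in either comparison, and 0 had an unadjusted p under 0.05 in Cd against control and 1 in Cd+Se against Cd (Thrsp, log2 change -1.11, adjusted p = 0.110). Scd1, the most abundant of them, was 3742 ± 1361 TPM in control and 2370 ± 928 in Cd mice (adjusted p = 0.242).

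**Figure D5:**
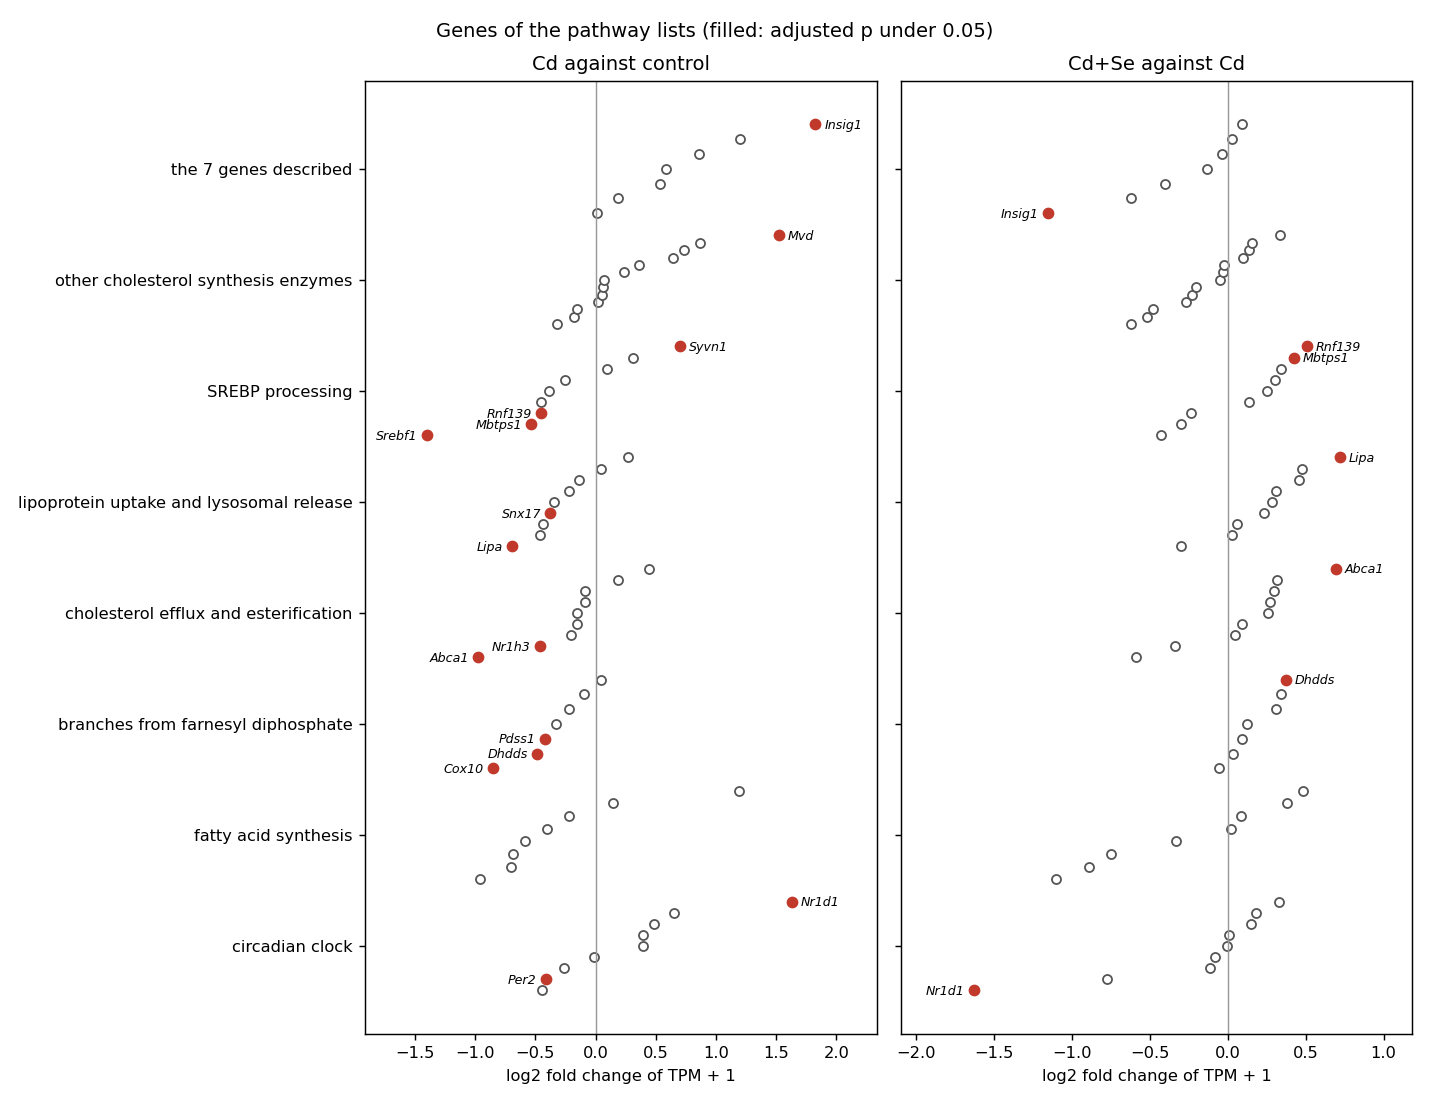
Fitted log2 fold changes of TPM + 1 for the tested genes of each list in Cd against control and in Cd+Se against Cd, 1 point a gene, filled and named where the adjusted p was under 0.05. Insig1, Mvd, Syvn1 and Nr1d1 are the filled points to the right of 0 under Cd, and Insig1 and Nr1d1 those to the left of 0 in Cd+Se against Cd.

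Liver sterol genes are known to follow the time of day, and the clock genes were therefore read beside them. Nr1d1, the nuclear receptor REV-ERB-alpha, was 7.32, 15.7, 9.64 and 13.8 TPM in control mice 27 to 30 and 56.2, 43.99, 24.7 and 29.01 TPM in Cd mice 1, 2, 5 and 6. It was 16.5, 11.6, 6.70 and 11.7 TPM in Cd+Se mice 13 to 16, so that it was high in the Cd mice as Insig1 was. In Se mice 39, 40, 41 and 44 Nr1d1 was 5.39, 4.60, 8.34 and 10.3 TPM. Mouse 40, high for Insig1 in its group, was thus the lowest of the 16 mice for Nr1d1. The log2 changes of Nr1d1 in Cd against control and Cd+Se against Cd were 1.63 and -1.63 (SE 0.31 each, adjusted p = 0.00145 and 0.00635 by limma). Of 9 clock genes tested among 11 listed, 1 was called higher under Cd, 1 lower (Per2, -0.41, adjusted p = 0.0471, and 0.309 after median centring) and 7 were not called. Beside this, 5.82% of all genes were called higher and 24.9% lower. After median centring 3 were called higher and 0 lower (5 of the 9 with an unadjusted p under 0.05, the 3 called included). Besides Nr1d1 these were Nr1d2 (0.62, adjusted p = 0.00426) and Per1 (0.71, adjusted p = 0.0183), which are named after their values were seen. That centring also raised the calls over all genes, to 19.2% higher, with 1804 of 11766 lower. Arntl and Npas2, at means of 0.568 and 0.023 TPM, were below the filter. The part of the collection time or of the clock in the levels of the 7 genes was not tested.

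The genes outside the 7 whose levels followed them most closely were ranked by Pearson's r, over the 16 libraries, between log2(TPM + 1) and the mean z score of the 7. The 10 highest had r between 0.91 and 0.99, and between 0.78 and 0.97 without the libraries of Cd mouse 2 and Se mouse 40, which lay farthest from the median score. Cyp51 (lanosterol demethylase, r = 0.99), Nsdhl (a sterol dehydrogenase, 0.95), Mvd (0.95) and Acat2 (the cytosolic thiolase, 0.94) are enzymes of the same pathway. Rdh11 (a retinal reductase, 0.97), Tmem97 (a sterol-regulated membrane protein, 0.92), Apoa1 (the main apolipoprotein of HDL, 0.92) and Smoc2 (a matrix protein, 0.91) are not in the lists of synthesis enzymes. Among the 7, r with the same score was between 0.88 and 0.97 for the enzymes and 0.70 for Insig1, each gene being part of the score. In Cd against control, Cyp51, Nsdhl and Rdh11 had log2 fold changes of 0.74, 0.65 and 0.60 and Tmem97 of 0.57, and none of the 4 was called (limma adjusted p between 0.0946 and 0.366).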

How the data were processed

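Whole-liver RNA was sequenced as poly(A)-selected libraries, 1 column per mouse. The authors deposited 1 table of TPM values, which per the submitters' processing notes came from fastp, HISAT2 and StringTie (versions not given in the sources used here). These notes name the human build GRCh38 although the gene identifiers are those of mouse, so no gene coordinates are taken from them. TPM holds no read totals, so the depth of each library is unknown and no counting interval is given. The titles name 2 replicates per mouse and the table has 1 column for each, so p-values measure the spread between mice.

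Groups came from the labels. Values were taken as log2(TPM + 1) for the 11766 genes whose mean reached 1 TPM, and 1 model of the 4 groups was fitted with limma 3.58.1 (R 4.3.3, moderated with a trend), with 6 contrasts, each adjusted by Benjamini-Hochberg over all genes tested and called at 0.05. Single genes were also given an exact two-sided permutation test (70 arrangements, smallest p 0.0286). The fit was tested on simulated data. The 7 genes and all lists were chosen with earlier results of these data known. Named genes were all 7, from each list up to 6 called genes with the largest change (the 2 most abundant where fewer than 2 were called), Srebf2, Srebf1, Scap and Insig2, and the 10 genes most like the 7 over the libraries. Some genes of the lists and of these 10 are not reported here and are left out of the list counts.

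The alternatives were a pseudocount of 0.1, no filter, a minimum of 5 TPM, quantile normalization, median centring, a fit of only the groups compared, no trend, and each of the 16 mice left out in turn. Both scalings without Se mouse 40 were added after seeing the data. Promoters are RefSeq entries of GRCm38.p6. The authors' study was read for its design, and none of its values were used.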

Additional observations from a re-analysis of the deposited data

Results flagged for a closer look

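Se mouse 40 stood far above the other 3 mice of its group for all 7 genes. As a share of the group's whole range in TPM, its distance to the next mouse was 0.906 for Hmgcs1, 0.941 for Idi1, 0.915 for Fdps, 0.886 for Fdft1, 0.927 for Sqle, 0.95 for Lss and 0.859 for Insig1, each above Dixon's 95% critical value for 4 samples. The same mouse was also marked for Mvd (0.907), Cyp51 (0.894), Nsdhl (0.961), Acat2 (0.965), Rdh11 (0.879), Scap (0.848) and Mbtps1 (0.851). Cd+Se mouse 15 was far below its group for Lss (5.33 TPM against 10.9 to 11.8, ratio 0.868) and Dhdds (5.77 TPM against 7.06 to 7.25, ratio 0.872). Control mouse 28 was high for Abca1 (34.3 TPM against 27.2 to 28.4, ratio 0.836), and control mouse 27 for Thrsp (686 TPM against 390 to 433, ratio 0.855). Of 132 groups looked at over 33 genes, 18 were marked, 14 of them by Se mouse 40, where chance marks about 1 in 20 groups taken singly. That rate holds for values that are normally distributed on the scale used, which was TPM. On the log2(TPM + 1) scale of the fits a high mouse has a smaller ratio. Hmgcs1 and Sqle, among others of the 7 genes, would fall under the critical value there. These genes vary together, and Cyp51, Rdh11, Nsdhl, Mvd and Acat2 were named for their likeness to the 7 over the same libraries, so their marks are not separate observations.

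For Abca1, Cd had a different effect on the Se diet than off it, by the interaction term of the limma fit, which 1.04% of the genes tested passed. The difference on the log2 scale was 0.99 (adjusted p = 0.0415), and it was called with median centring and without Se mouse 40. The lower level in Se than in control mice (log2 change -0.29, not called, exact permutation p = 0.0286) enters this difference.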

How the results depend on the processing

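Insig1 was called higher in Cd against control under all 25 alternatives. The number of the 7 genes called higher there was 2 after quantile normalization and with only the groups compared, 3 after median centring and 3 with either scaling without Se mouse 40, and between 1 and 3 with 1 mouse left out. Of the 11766 genes tested, 1710 were called higher after quantile normalization, 747 with only the groups compared and 2260 after median centring. Without Se mouse 40 these were 1756 after quantile normalization and 2319 after median centring. The number called lower in Cd+Se against Cd was 0 without a filter and 0 with only the groups compared, 2 with median centring without Se mouse 40, and between 0 and 1 with 1 mouse left out. Of all genes tested, 202 of 27943 were called lower there without a filter and 19 of 11766 with only the groups compared. With median centring without Se mouse 40 it was 1311 of 11766. In the interaction 1 gene was called lower after quantile normalization, 1 after median centring and 1 with median centring without Se mouse 40. Interaction calls over all 11766 genes rose with these scalings, from 16 lower as deposited to 196 after quantile normalization and 416 after median centring. The share of all interaction calls that were lower was 13.1%, 37.4% and 56.9% in these fits. It was 57.8% with median centring without Se mouse 40. The cause of these shifts was not tested.

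Directions changed for differences that were not called. In Cd+Se against Cd, Idi1 was -0.068 and Lss -0.092 after quantile normalization and -0.17 and -0.10 after median centring, with the same values without Se mouse 40. Without Se mouse 40 and with median centring or quantile normalization, Se against control was -0.14 or -0.15 for Hmgcs1, -0.25 in both for Idi1, -0.41 or -0.42 for Fdps and -0.19 or -0.20 for Lss. Cd+Se against Se was then 0.31 or 0.32 for Idi1, 0.57 or 0.54 for Fdps and 0.63 or 0.64 for Sqle, and the interaction 0.081 or 0.19 for Idi1 and 0.088 or 0.10 for Lss.

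With 1 mouse left out, the log2 values of Hmgcs1 ranged from -0.20 to 0.80 in Se against control and from -0.22 to 0.77 in Cd+Se against Se. Those of Idi1 ranged from -0.35 to 0.37 in Cd against control, -0.34 to 0.39 in Cd+Se against Cd, -0.23 to 0.30 in Cd+Se against control, -0.30 to 0.72 in Se against control, -0.68 to 0.34 in Cd+Se against Se and -0.72 to 0.33 in the interaction. Those of Fdps ranged from -0.68 to 0.033 in Cd+Se against Cd, -0.20 to 0.57 in Cd+Se against control, -0.46 to 0.55 in Se against control, -0.37 to 0.59 in Cd+Se against Se and -0.96 to 0.058 in the interaction. Fdft1 ranged from -0.20 to 0.13 in Cd+Se against Cd and -0.12 to 0.52 in Cd+Se against Se, and Sqle from -0.41 to 0.23 and -0.47 to 0.66 in these comparisons. Lss ranged from -0.044 to 0.34 in Cd against control, -0.063 to 0.33 in Cd+Se against Cd, -0.24 to 0.37 in Se against control, -0.10 to 0.52 in Cd+Se against Se and -0.28 to 0.33 in the interaction. Among the alternatives for single genes, 947 kept direction and call, 15 gained the call, 6 lost it and 75 changed direction.

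No paired analysis was possible because the groups share no mouse numbers. TPM holds no depth, 4 mice a group cannot give an exact p under 0.0286, and the collection time is not given in the sources used here.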
